A study of Mus musculus with 24 samples.

Results

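The regions described here are 325 peaks of acetylated histone H3 lysine 27 (H3K27ac) that were called with doxycycline and not without it, at annotated ends of mouse protein-coding genes. They were chosen by measured values. A peak of the treated H3K27ac list was taken when it shared no base with the untreated H3K27ac list, lay within 1 kb of either annotated end of a protein-coding gene, and overlapped a peak in both lists of monomethylated H3 lysine 4 (H3K4me1). Of 23341 treated H3K27ac peaks on assembled chromosomes, 3983 (17.1%) shared no base with the untreated list. Of those, 342 lay within 1 kb of a gene end, and 325 of the 342 (95.0%, exact 95% interval 92.2 to 97.1%) overlapped H3K4me1 in both lists. Of the other 17, 12 overlapped treated H3K4me1 alone, 1 overlapped untreated H3K4me1 alone and 4 overlapped neither. Counted over all 9444 treated gene-end peaks with H3K4me1 in both lists, the members made up 3.44%, and the other 9119 were shared with the untreated list. These numbers follow from the rule and are not findings.

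Chromatin was mapped by ChIP-seq (sequencing of DNA bound to a precipitated protein or histone mark) in TgSpi1 erythroleukaemic cells, line #763, which are leukaemic erythroid cells from mouse bone marrow grown with erythropoietin (EPO). In the Dox Treated group, 48 h of doxycycline induced a short hairpin RNA against Spi1. The Dox Untreated group is the same line without doxycycline. Both groups carry the Spi1 transgene, which makes the cells overexpress SPI1, and both carry the inducible hairpin. All samples come from 1 line, and no group is labelled as doxycycline without the hairpin, so effects of the drug, of hairpin expression and of lower SPI1 cannot be told apart. Each H3K27ac list combines replicates 1 and 2, whereas H3K4me1 was listed for replicate 1 alone. With 1 list per mark and condition there is no replicate check: no difference below has a test, and each interval reflects nothing beyond counting error over peaks. In a bulk culture, a mark carried by fewer cells and less mark per cell cannot be told apart.

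H3K27ac is laid down by the acetyltransferases p300 and CBP at active promoters and enhancers and is removed by histone deacetylases. H3K4me1 marks enhancers and the flanks of promoters, and it can stand at a site before acetylation appears and after it is lost. SPI1, also called PU.1, is an ETS family factor that drives myeloid and B cell programmes, binds sequences with a purine-rich core, and restrains GATA1, the main factor of red cell differentiation. Terminal red cell differentiation turns on the adult globin genes, the enzymes of haem synthesis and the anion exchanger and other proteins of the red cell membrane.

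The treated and untreated H3K27ac lists held 23341 and 28902 peaks with median widths of 1353 and 1003 bp, over nearly equal totals of 41.2 and 41.48 Mb. The treated and untreated H3K4me1 lists held 101388 and 119362 peaks over 195.4 and 184.0 Mb, so the treated list was longer in total. The sequencing depth of the lists is not known. The erythroid label was checked against marker genes. Among genes of the red cell membrane, globins and haem synthesis, 47 of 56 had an H3K27ac peak within 1 kb of an end with doxycycline and 41 without it. The same held for 15 and 18 of 57 myeloid genes, 4 and 5 of 17 B cell genes, 3 and 3 of 21 T cell and NK genes, and 9 and 7 of 18 megakaryocyte genes. Over all protein-coding genes the shares were 45.8% with doxycycline and 46.5% without it.

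Sequences of 5 promoters are shown because they belong to erythroid, survival and chemokine genes on which the account below turns, and because they differ in the short motifs they hold. Each line gives the 250 bases before the RefSeq transcription start site, 5′ to 3′ on the gene's strand, on GRCm38.p6, which is the assembly behind mm10. Capitals mark AGATAA and TGATAA, 2 forms of the site bound by GATA factors, and GAGGAAG, a form of the purine-rich site bound by ETS factors such as SPI1, on either strand. TTATCT and CTTCCTC are AGATAA and GAGGAAG read on the other strand. Each of the 5 windows holds a match, while those of Bnip3 and Hbq1b, also read, hold none and are not shown. The window of Hba-a2, not shown either, holds TGATAA. The 5 do not stand for all members. Over 156 promoters of 146 genes with a member at the 5′ end, AGATAA and GAGGAAG were each found in 11.5% and TGATAA in 10.9%. Alas2 lies at chrX:150547167-150547416 (+), Hbb-bs at chr7:103827929-103828178 (-), Hba-a1 at chr11:32283422-32283671 (+), Cxcl10 at chr5:92348890-92349139 (-) and Bcl2 at chr1:106714291-106714540 (-).
Alas2: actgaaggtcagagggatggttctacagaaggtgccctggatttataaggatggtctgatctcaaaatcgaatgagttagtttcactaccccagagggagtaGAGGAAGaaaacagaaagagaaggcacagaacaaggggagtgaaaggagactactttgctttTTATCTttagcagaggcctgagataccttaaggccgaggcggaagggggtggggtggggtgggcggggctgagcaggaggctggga
Hbb-bs: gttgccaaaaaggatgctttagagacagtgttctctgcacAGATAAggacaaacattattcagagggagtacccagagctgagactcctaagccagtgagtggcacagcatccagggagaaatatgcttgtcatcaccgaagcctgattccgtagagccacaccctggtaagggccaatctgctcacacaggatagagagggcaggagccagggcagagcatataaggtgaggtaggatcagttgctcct
Hba-a1: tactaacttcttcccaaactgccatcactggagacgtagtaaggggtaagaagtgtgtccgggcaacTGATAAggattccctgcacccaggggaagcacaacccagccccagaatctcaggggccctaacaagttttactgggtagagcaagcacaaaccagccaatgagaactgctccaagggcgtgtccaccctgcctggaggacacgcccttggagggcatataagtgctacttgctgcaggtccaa
Cxcl10: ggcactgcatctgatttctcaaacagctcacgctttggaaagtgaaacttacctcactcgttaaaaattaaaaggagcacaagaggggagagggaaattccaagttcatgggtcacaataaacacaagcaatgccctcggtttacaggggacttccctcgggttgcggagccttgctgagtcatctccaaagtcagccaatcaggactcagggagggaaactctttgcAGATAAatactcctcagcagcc
Bcl2: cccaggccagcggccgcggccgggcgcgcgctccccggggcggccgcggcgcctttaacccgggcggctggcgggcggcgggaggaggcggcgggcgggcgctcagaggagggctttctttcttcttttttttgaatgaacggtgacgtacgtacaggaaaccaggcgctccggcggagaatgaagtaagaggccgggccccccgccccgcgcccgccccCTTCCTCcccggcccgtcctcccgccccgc

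All 250 bases shown for Alas2, Hbb-bs, Cxcl10 and Bcl2 lay inside a member. For Hba-a1 none did, since the members there stood on either side of the start site. The Alas2 window held GAGGAAG 148 bases before the start and AGATAA, on the other strand, 86 bases before it. AGATAA stood 210 bases before the Hbb-bs start and 22 bases before the Cxcl10 start, and TGATAA stood 183 bases before the Hba-a1 start. The Bcl2 window held GAGGAAG on the other strand, 30 bases before the start. A match of letters is a description of the window and does not show that a factor was bound.

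At the alpha-globin genes, H3K27ac with doxycycline lay over and beside Hba-a1 and Hbq1b, where the untreated list had none. Hba-a1 and Hba-a2 encode the adult alpha-globin chain of haemoglobin, and Hbq1b is a theta-globin gene beside them. The 4 members lay in a run of 16903 bp (chromosome 11, 32281199 to 32298101), over which H3K27ac covered 9265 bp with doxycycline and 0 bp without it. H3K4me1 in the same run covered 14909 bp with doxycycline and 7418 bp without it. The rule required some H3K4me1 at each member in both conditions, and over the run the covered stretch was longer with doxycycline.

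The member before Hba-a1, of 2203 bp (32281199 to 32283401), ended 271 bp short of the gene. The next, of 1903 bp (32284099 to 32286001), began inside Hba-a1 and reached to within 1 kb of Hbq1b. The third, of 2003 bp (32286249 to 32288251), covered the whole of Hbq1b. The fourth, of 753 bp (32297349 to 32298101), began 39 bp past the far end of Hba-a2 and so did not touch that gene or its start. Summed over the gene and 1 kb either side, H3K27ac covered 2118 bp at Hba-a1, 2041 bp at Hbq1b and 753 bp at Hba-a2 with doxycycline, and 0 bp at each without it. H3K4me1 covered 2218 bp with doxycycline and 1933 bp without it at Hba-a1, and 1422 bp and 1072 bp at Hba-a2.

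Not every gene of the cluster had a member. The embryonic gene Hba-x and the theta-globin gene Hbq1a had no H3K27ac in either list. Over their bodies and 1 kb either side, H3K4me1 covered 702 bp at Hba-x and 1833 bp at Hbq1a with doxycycline and 0 bp at both without it. Over the 5 genes with 10 kb either side, there were 6 treated H3K27ac peaks over 13617 bp and 2 untreated ones over 3455 bp, with both of the untreated ones more than 5 kb to the left of Hba-x. The promoter windows of Hba-a1 and Hba-a2 were identical over 297 of 297 bases once shifted by 3 bases, so reads may be shared between these copies, and the split of signal between them is uncertain.

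**Figure D1:**
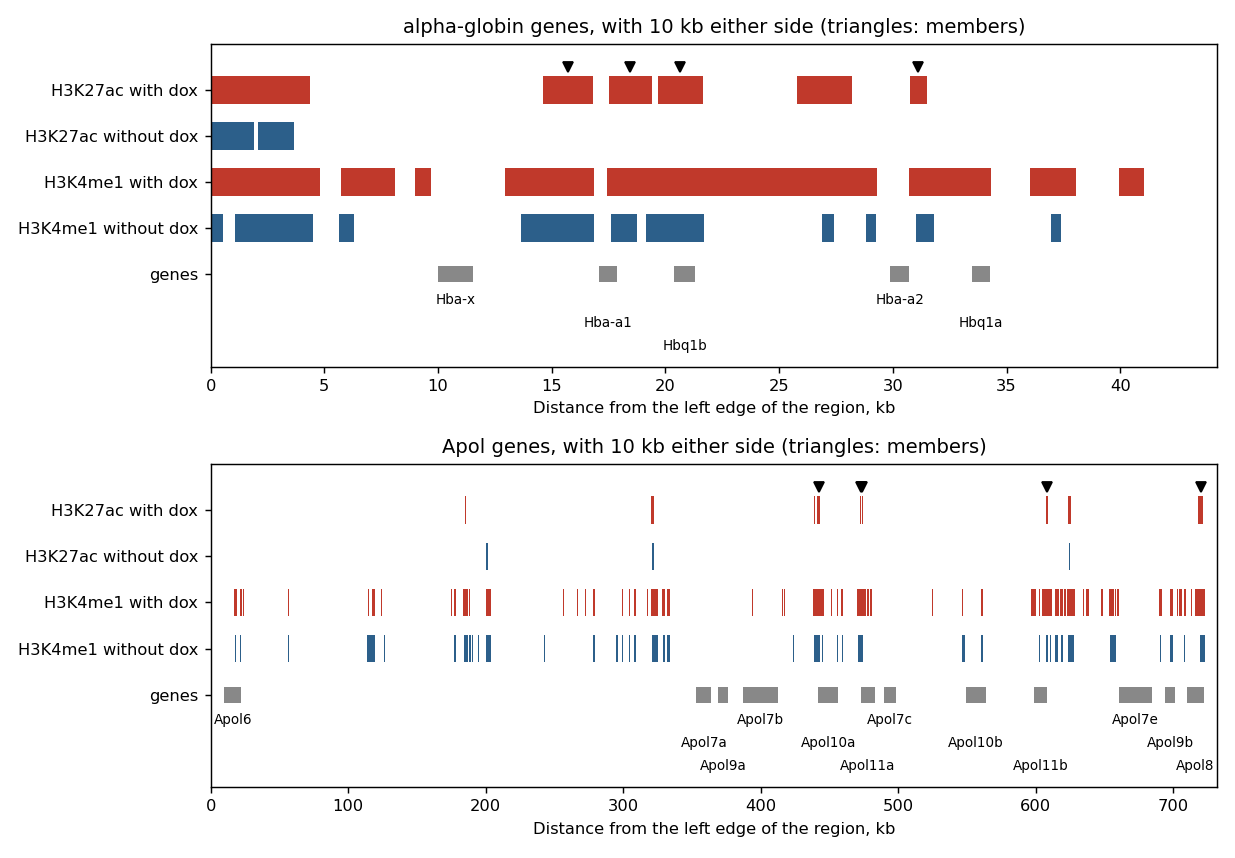
Peaks at the alpha-globin genes (top) and the Apol genes (bottom), with distance from the left edge of each region in kb on the x axis; bars are peaks of each list, grey bars are genes and triangles mark members. At the alpha-globin genes the treated H3K27ac list has 6 peaks and the untreated list 2, and at the Apol genes 11 and 3.

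At the beta-globin locus, both members belonged to Hbb-bs, an adult beta-globin gene (chromosome 7, 103826523 to 103827928). One of 1553 bp (103827549 to 103829101) lay over the 5′ end and one of 803 bp (103825999 to 103826801) over the 3′ end. H3K27ac over Hbb-bs and 1 kb either side was 2412 bp with doxycycline and 0 bp without it. H3K4me1 within 1 kb of the first member was 2956 bp with doxycycline and 1706 bp without it, and around the second it was 2206 bp in both conditions. Untreated H3K27ac peaks were not far away, with gaps of 2448 bp and 898 bp to the nearest. Hbb-bs has a near-identical neighbour, Hbb-bt, with which reads may be shared.

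Other members stood at genes of haem synthesis, iron handling and the red cell membrane. Alas2 encodes the enzyme that starts haem synthesis in red cell precursors (chromosome X, 150547417 to 150570622). Its member was 2753 bp wide (150546899 to 150549651) and covered the 5′ end, 448 bp from the nearest untreated H3K27ac peak. H3K4me1 was already broad there, with 4603 bp with doxycycline and 4403 bp without it within 1 kb of the member. Over the gene and 1 kb either side, H3K27ac covered 7215 bp with doxycycline and 1406 bp without it. The Alas2 member thus stood at a gene with other H3K27ac in the untreated list, unlike the globin members, whose genes had none there.

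Steap3 encodes a ferrireductase that reduces iron in endosomes of red cell precursors. Its member of 2453 bp (chromosome 1, 120269549 to 120272001) covered the 5′ end, and the nearest untreated peak was 1998 bp away. H3K4me1 within 1 kb was 4053 bp with doxycycline and 3203 bp without it. Slc4a1 encodes the anion exchanger of the red cell membrane. The member of 1953 bp at one of its ends (chromosome 11, 102363949 to 102365901) was 40448 bp from any untreated H3K27ac peak. H3K4me1 around it was 3953 bp with doxycycline and 2253 bp without it. The widest H3K4me1 peak that touched it was 17503 bp with doxycycline and 2253 bp without it, and it was among the 5 members with the largest difference in H3K4me1.

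The members at Aqp1 and Tspo2 lay near the 3′ end. Aqp1 encodes a water channel of the red cell membrane. Its member was 703 bp wide, with 2703 bp of H3K4me1 with doxycycline and 2153 bp without it within 1 kb. Tspo2 encodes an erythroid relative of the mitochondrial translocator protein. Its member was 603 bp wide, with 2603 bp of H3K4me1 with doxycycline and 2356 bp without it. Both genes also had H3K27ac without doxycycline, over 2759 bp at Aqp1 and 2916 bp at Tspo2, against 7406 bp and 3719 bp with it, over the gene and 1 kb either side.

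Of 21 erythroid factor genes, 2 (9.52%) had a member, Sox6 and Gata1, against 1.55% of all protein-coding genes. None had a gene-end peak in the untreated list alone, chosen in the same way. Across the alternative settings the number with a member ran between 0 and 3, and the other number between 0 and 1. Sox6 encodes an SRY-related factor of erythroid maturation and globin switching. Its member was 1203 bp wide, and H3K4me1 within 1 kb was 2803 bp with doxycycline and 2953 bp without it. Over the whole gene, H3K27ac covered 38857 bp with doxycycline and 14439 bp without it, and H3K4me1 220465 bp and 112593 bp. The member at Gata1 was 3 bp wide and 48 bp from an untreated peak, so it adds almost no length. Over Gata1 and 1 kb either side, H3K27ac covered 10315 bp with doxycycline and 12012 bp without it.

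Counted by gene, 339 of 21887 protein-coding genes had a member at an end, which is 1.55%. By the mirrored rule, which takes untreated peaks absent from the treated list, 712 peaks and 739 genes (3.38%) were found. That order turned with the number of peaks listed: with equal peak numbers in each list there were 523 members and 384 mirrored peaks. Dropping untreated H3K27ac peaks can only add members and remove mirrored peaks. In every other setting mirrored peaks outnumbered members, for example 1167 against 333 with the wider 50% of each H3K27ac list. In the erythroid membrane, globin and haem list, 8 of 56 genes (14.3%) had a member and 0 had a mirrored peak. Across the alternative settings the first number ran between 4, with peaks within 1 kb merged, and 11, with only the wider 50% of H3K27ac peaks kept. With these wider peaks the second number was 2, and it was 0 otherwise. Since the H3K27ac contrast chose the members and the lists were written with earlier results known, these counts are a description.

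In each of the other lists at most 2 genes had a member, so the shares with a member rest on 2 genes or fewer. Over all protein-coding genes, 1.55% had a member and 3.38% a mirrored peak. Among myeloid genes, 2 of 57 (3.51%) had a member, Ncf4 and Cebpd, and 7 (12.3%) had a mirrored peak, Spi1 among them. Ncf4 encodes a cytosolic subunit of the phagocyte NADPH oxidase. Its member of 2053 bp (chromosome 15, 78259799 to 78261851) was 63448 bp from any untreated H3K27ac, with 4053 bp of H3K4me1 with doxycycline and 2603 bp without it. Cebpd encodes a C/EBP family factor. Its member was 903 bp wide, with 2353 bp of H3K4me1 with doxycycline and 1803 bp without it. Over the whole of each gene and 1 kb either side, H3K4me1 was shorter with doxycycline at both, with 6087 bp against 6409 bp without it at Ncf4 and 2116 bp against 2656 bp at Cebpd.

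**Figure D2:**
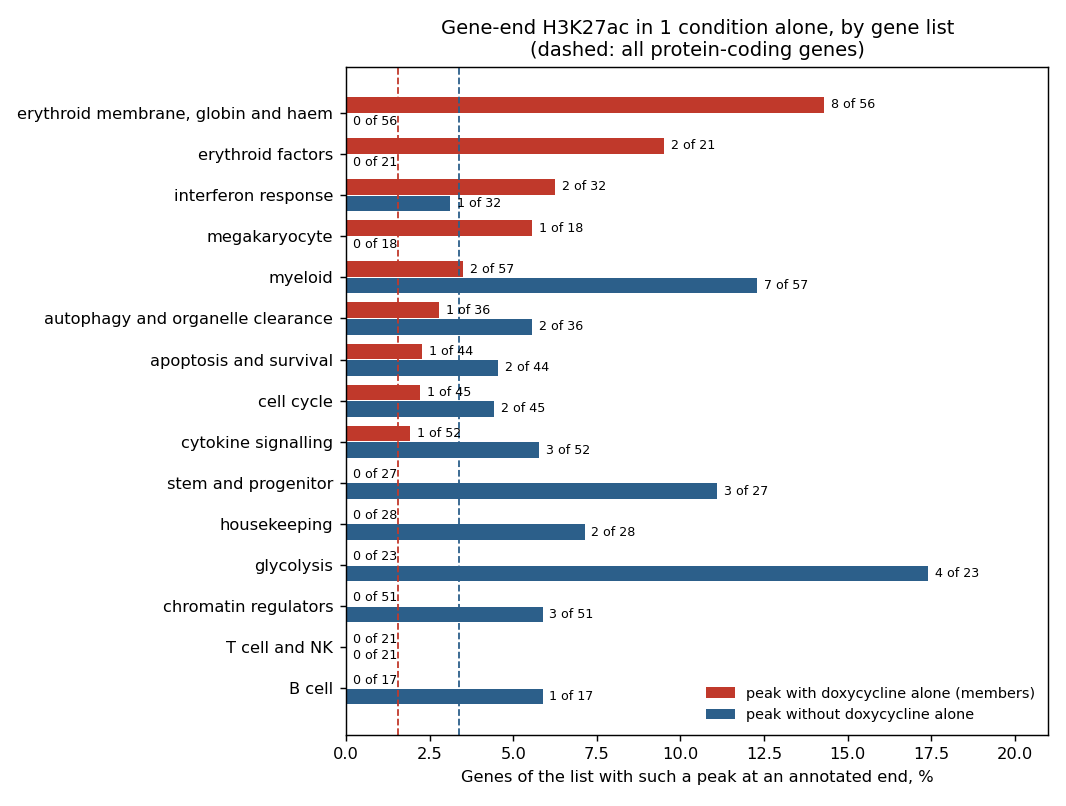
Share of the genes of each list, in percent on the x axis, with a gene-end H3K27ac peak in the treated list alone (red, the members) or in the untreated list alone (blue), with counts beside the bars and dashed lines at 1.55% and 3.38% for all protein-coding genes. The erythroid membrane, globin and haem list has 8 of 56 genes with a treated peak alone and 0 with an untreated one, and the myeloid list has 2 and 7 of 57.

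Of 32 interferon response genes, 2 (6.25%) had a member, Cxcl10 and Ifitm3, and 1 (3.12%) had a mirrored peak. Cxcl10 encodes an interferon-induced chemokine. Its member of 1003 bp (chromosome 5, 92348449 to 92349451) covered the 5′ end, with 3003 bp of H3K4me1 with doxycycline and 2453 bp without it. Ifitm3 encodes an interferon-induced antiviral membrane protein, and its member of 753 bp lay near the 3′ end, with 2353 bp of H3K4me1 with doxycycline and 2053 bp without it. Neither gene had untreated H3K27ac over its body and 1 kb either side. Of 18 megakaryocyte genes, 1 (5.56%) had a member, Itgb3, an integrin subunit of platelets, and 0 had a mirrored peak. That member was 553 bp wide, with 2003 bp of H3K4me1 with doxycycline and 2106 bp without it.

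Of 44 apoptosis genes, 1 (2.27%) had a member, the survival gene Bcl2, and 2 (4.55%) had a mirrored peak. The Bcl2 peak of 903 bp lay over the 5′ end (chromosome 1, 106713899 to 106714801), 43698 bp from any untreated H3K27ac. H3K4me1 covered only 306 bp of that peak with doxycycline and 256 bp without it, and the remaining H3K4me1 lay beside it. The other lists had 1 member each or none. Bnip3, a mitophagy receptor, was the only autophagy gene of 36 (2.78%), with a peak of 103 bp. Btg2, an antiproliferative gene, was 1 of 45 cell cycle genes (2.22%), with a peak of 653 bp. Spry1, an inhibitor of receptor kinase signalling, was 1 of 52 cytokine signalling genes (1.92%), with a peak of 303 bp. A mirrored peak stood at 2 autophagy (5.56%), 2 cell cycle (4.44%) and 3 cytokine signalling genes (5.77%). The members at Bnip3, Btg2 and Spry1 lay 48, 1098 and 398 bp from an untreated H3K27ac peak, and each of the 3 genes had over 2 kb of H3K27ac in both lists. No member stood at the 51 chromatin regulator, 28 housekeeping, 27 stem and progenitor, 23 glycolysis, 21 T cell and NK or 17 B cell genes. In the same lists, 3 chromatin regulator (5.88%), 2 housekeeping (7.14%), 3 stem and progenitor (11.1%), 4 glycolysis (17.4%), 0 T cell and NK and 1 B cell gene (5.88%) had a mirrored peak.

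The widest member, of 4003 bp, lay at the 5′ end of Apol8 (chromosome 15, 77752849 to 77756851), in a cluster of apolipoprotein L genes that was singled out after its values were seen. Apolipoprotein L proteins bind lipids, and several human ones are induced by inflammatory signals. H3K4me1 within 1 kb of the Apol8 member covered 6003 bp with doxycycline and 3403 bp without it. Of the 12 Apol genes of the cluster, 4 carried the 5 members. Apol10a had one of 1803 bp, Apol11b one of 2003 bp and Apol11a a pair of 1103 and 603 bp. None of these 4 genes had H3K27ac over its body and 1 kb either side without doxycycline. H3K4me1 over the same stretch was 8356 bp with doxycycline and 3453 bp without it at Apol8, 7548 and 2306 bp at Apol11b, 6958 and 3055 bp at Apol10a, and 6629 and 1853 bp at Apol11a. The other 8 genes had no H3K27ac over this stretch in either list. Across the cluster with 10 kb either side (732013 bp), H3K27ac covered 15633 bp in 11 treated peaks and 2809 bp in 3 untreated ones. The genes of this family resemble each other, and reads placed at more than 1 of them were not assessed.

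After Apol8, the widest members lay at genes of several kinds. Kcnj12, an inward rectifier potassium channel gene, had a peak of 2853 bp past its 3′ end, 25048 bp from any untreated peak, with 3003 bp of H3K4me1 with doxycycline and 2003 bp without it. Pola1, the catalytic subunit of DNA polymerase alpha, had one of 2753 bp over its 3′ end, with 4553 bp of H3K4me1 with doxycycline and 3256 bp without it. Ypel4, of the Yippee-like family, had a pair of members of 2603 and 1003 bp at its 5′ end and no untreated H3K27ac. H3K4me1 around the wider of them was 4603 bp with doxycycline and 3806 bp without it. Zdhhc11, a palmitoyltransferase gene, had one of 2353 bp, with 3903 bp of H3K4me1 with doxycycline and 2553 bp without it. Tmx3, a disulfide isomerase of the endoplasmic reticulum, and Fam13b closed the 10 widest with 2253 and 2203 bp, beside Alas2, Steap3 and Hba-a1. The member at Lrrc39 was also 2203 bp wide and fell outside the 10 only by chromosome order. Alas2, Steap3 and Hba-a1 belong to the erythroid membrane, globin and haem list, which was written with earlier results known. Of that list, 8 of 56 genes (14.3%) had a member of any width, against 1.55% of all protein-coding genes.

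Most members were short. Their widths ranged between 3 and 4003 bp, with a median of 603 bp and quartiles of 403 and 853 bp. Of the 325, 69 were at least 1000 bp wide, 24 were under 200 bp and 4 were 3 bp wide. The shared gene-end peaks had a median of 1903 bp and the mirrored untreated peaks one of 453 bp. Both single-condition sets were narrower than the shared set, and a wide peak has more room to share a base with the other list. The 1103 shared peaks no wider than 853 bp, a set added after seeing the data, are therefore given beside the full shared set in what follows.

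The H3K4me1 around members was longer with doxycycline at most of them, at a share close to that of all gene-end peaks. Within 1 kb of a member, H3K4me1 covered a median of 2353 bp with doxycycline and 2053 bp without it, and the median difference was 200 bp (quartiles 0 and 550 bp). It was longer with doxycycline at 228 members (70.2%, interval 64.9 to 75.1%), against a background of 74.6% over all 9444 gene-end peaks. It was shorter at 36 (11.1%, interval 7.88 to 15%), against 16.6%, and equal at 61. Among shared peaks it was longer at 74.8%, among the narrow shared ones at 61.9% and among the mirrored peaks at 39.3%. With treated lengths scaled so that both H3K4me1 lists had the same total, the shares were 62.2% of members, 56.9% of shared peaks, 48.6% of narrow shared peaks and 32.0% of mirrored ones. At 1 kb, the share among members thus lay below or above that of shared peaks according to the scaling.

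**Figure D3:**
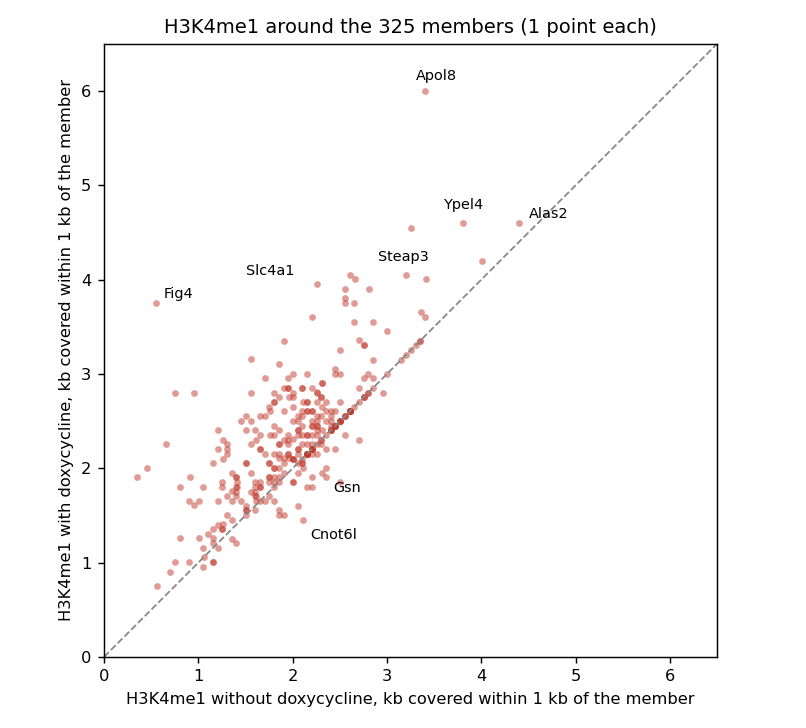
H3K4me1 coverage within 1 kb of each of the 325 members, in kb, without doxycycline (x axis) and with it (y axis), 1 point per member, with a dashed line of equality. Points lie above the line for 228 members and below it for 36, and Fig4 and Apol8 lie farthest above.

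Over a window of 5 kb either side, which holds the 1 kb window, the summed difference was larger. Base by base it was not larger farther out. Treated and untreated H3K4me1 were present at 78.2% and 60.6% of members 1 kb to the left of the peak centre. At 1 kb to the right they were present at 80.0% and 62.2%. At 5 kb the shares were 43.1% and 36.0% to the left and 41.8% and 29.8% to the right. Within 5 kb of a member, H3K4me1 covered a median of 6056 bp with doxycycline and 4512 bp without it, with a median difference of 894 bp. It was longer with doxycycline at 263 members (80.9%, interval 76.2 to 85.0%), against a background of 70.7%. The shares were 70.3% among shared peaks, 60.6% among narrow shared ones and 46.3% among mirrored peaks, with median differences of 450, 250 and -50 bp. With scaled lengths they were 70.5% of members (interval 65.2 to 75.4%), 54.3% of shared peaks, 47.9% of narrow shared peaks and 35.5% of mirrored ones. Within 5 kb the members thus had the highest share of these 4 sets with and without scaling. At the members near a 3′ end it was 90.9% (interval 83.4 to 95.8%), and at those at a 5′ end 74.6% (interval 67.3 to 80.9%).

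The members themselves lay almost wholly inside H3K4me1. Of the 325, 309 (95.1%) were covered over their full width by treated H3K4me1 and 264 (81.2%) by untreated H3K4me1, and 262 by both. The rule asked for an overlap of only 1 bp. Among shared peaks, full cover was found at 26.8% with doxycycline and 19.5% without it, and among narrow shared peaks at 71.0% and 59.3%. At the mirrored peaks it was 90.3% and 91.6%. At the centre of the peak, treated and untreated H3K4me1 were present at 97.5% and 95.1% of members but at 48.0% and 40.2% of shared peaks. At 1 kb to the left of the centre they were present at 78.2% and 60.6% of members and at 87.4% and 82.0% of shared peaks. The narrow shared peaks had 88.6% and 80.2% at the centre and 74.3% and 67.8% at 1 kb to its left. The full shared set thus had the dip at the centre that is usual at active promoters, and neither the members nor the narrow shared peaks had one of that kind.

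**Figure D4:**
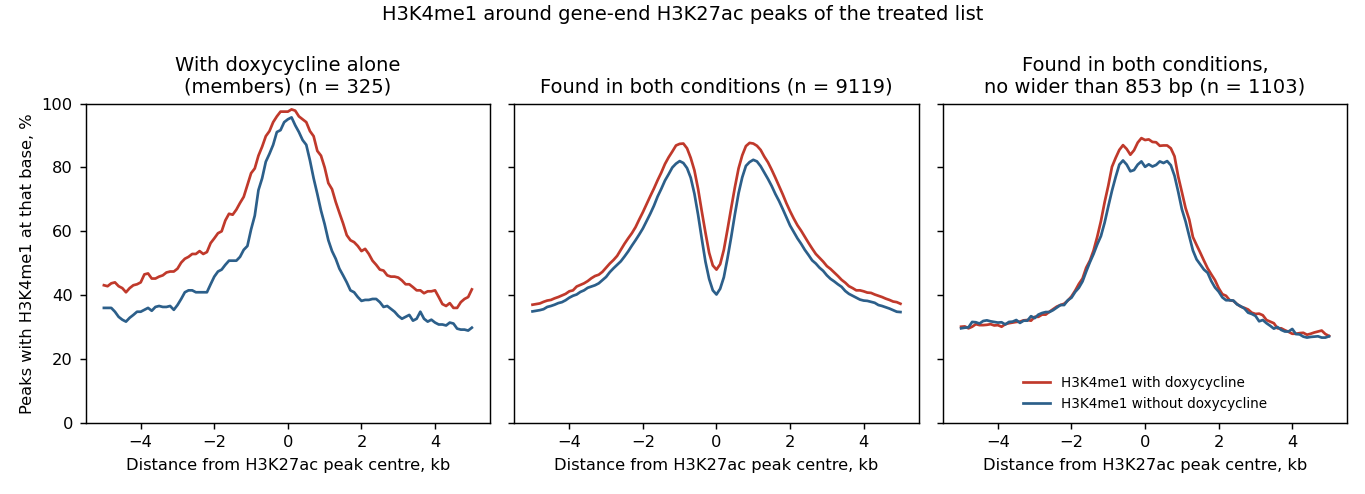
Share of peaks, in percent on the y axis, with H3K4me1 at each distance from the H3K27ac peak centre in kb on the x axis, with doxycycline (red) and without it (blue), for the 325 members, the 9119 shared gene-end peaks and the 1103 shared peaks no wider than 853 bp. Members have 97.5% and 95.1% at the centre with no dip, and the treated line lies above the untreated one out to 5 kb, while shared peaks dip to 48.0% and 40.2%.

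The largest differences in H3K4me1 were at single genes. Within 1 kb of the member at Fig4, a phosphoinositide phosphatase gene, H3K4me1 covered 3753 bp with doxycycline and 553 bp without it. At the Sh3tc2 member at the lower coordinate end of the gene it covered 2803 and 756 bp, and at LOC115488350 2803 and 956 bp. Apol8 and Slc4a1, given above, were the remaining members among the 5 largest. Over all members, 99 differed by at least 500 bp toward more H3K4me1 with doxycycline and 2 by as much toward less. These counts were not made for the other sets. The upper quartile of the difference was 550 bp among members and 500 bp among shared peaks, so differences of this size were common at shared peaks too. It was 350 bp among narrow shared and 200 bp among mirrored peaks.

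The members with less H3K4me1 with doxycycline differed by smaller amounts. The member 401 bp beyond the 5′ end of Cnot6l, a deadenylase gene, had 1453 bp with doxycycline and 2106 bp without it. The one at Sap25 and Lrch4 had 1853 and 2503 bp. Gsn, the actin-severing protein gelsolin, had 1903 and 2353 bp, Gm8909 had 1603 and 2056 bp, and the tetraspanin gene Tspan18 had 2303 and 2703 bp. These 5 sites were picked for shorter H3K4me1 with doxycycline, and by the rule their H3K27ac was called with doxycycline alone.

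The share of members at a 5′ end was lower than that of shared peaks, with intervals that do not meet. Of the 268 members at a gene whose strand is known, 169 (63.1%, interval 57.0 to 68.9%) were within 1 kb of a 5′ end and 99 were near a 3′ end alone. The strand was not known at the other 57. The share at a 5′ end was 92.8% among shared peaks, 83.6% among narrow shared peaks (interval 81.1 to 86.0%) and 61.9% among mirrored peaks (interval 57.8 to 65.9%). Single-condition peaks of either direction thus had similar shares, both below that of narrow shared peaks. Of all members, 228 (70.2%) touched a gene body, against 95.4% of shared, 80.8% of narrow shared and 65.4% of mirrored peaks. Whether they lay in exons or introns was not assessed.

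Genes with a member fell into those without any earlier H3K27ac and those that already had it. Of the 339 genes, 127 (37.5%, interval 32.3 to 42.9%) had no untreated H3K27ac over the body and 1 kb either side, Hba-a1, Hbb-bs, Slc4a1, Ypel4, Cxcl10 and Bcl2 among them. For the 166 genes with a member at the 5′ end the number was 79 (47.6%, interval 39.8 to 55.5%). Of the 109 genes with a member near the 3′ end alone, 79 (72.5%, interval 63.1 to 80.6%) had an untreated H3K27ac peak within 1 kb of the 5′ end, and 79 had a treated one there. Whether these were the same genes was not checked. Where a treated peak lay there, the member was a further stretch of acetylation on a gene acetylated near its start with doxycycline. The shares in this paragraph were not computed for all genes or for genes with a mirrored peak. They therefore cannot be called particular to genes with a member. Over all protein-coding genes, 46.5% had an untreated H3K27ac peak within 1 kb of an end, a measure that leaves out the gene body.

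The distance to the nearest untreated peak varied widely. It was at most 5 kb for 167 members (51.4%, interval 45.8 to 56.9%), with a median of 4198 bp, and 78 members had no untreated peak within 20 kb and 37 none within 50 kb. The share was similar among the 712 mirrored peaks, of which 386 (54.2%, interval 50.5 to 57.9%) lay within 5 kb of a treated peak. The farthest member was that at Tmx3 at 899098 bp, followed by the kinase gene Stk32a at 590648 bp, Ehbp1, which encodes an endocytic adaptor, at 554448 bp, LOC115488350 at 525148 bp and Tpcn2, a lysosomal cation channel gene, at 341748 bp. At Tpcn2, H3K4me1 within 1 kb of the member was 2153 bp in both conditions. At Stk32a it was 2803 bp with doxycycline and 1806 bp without it, at Ehbp1 2156 and 1856 bp, and at Tmx3 2906 and 2306 bp. These members were picked for their distance from untreated H3K27ac, and the rule required H3K4me1 at the site in both lists, so neither trait is a finding.

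A few genes carried several members. There were 17 with at least 2, and Sh3tc2, an endosomal adaptor gene known from Schwann cells, had 3. Across the stretch of 63903 bp that holds these 3, H3K27ac covered 7268 bp with doxycycline and 0 bp without it, and H3K4me1 46348 and 10333 bp. Of the 7 runs of at least 3 members within 100 kb of each other, 4 had no untreated H3K27ac. These were alpha-globin, Apol10a with Apol11a, Sh3tc2, and Fam205a1 with Fam205c. In the last of them, H3K27ac covered 2159 and 0 bp with and without doxycycline, and H3K4me1 6506 and 3056 bp. The run at Tusc2 and Hyal1 had 6062 bp of H3K27ac with doxycycline and 4209 bp without it, and H3K4me1 of 10059 and 10562 bp. Runs of mirrored or shared peaks were not counted, so clustering cannot be called particular to the members. By the rule, no member in a run overlapped untreated H3K27ac.

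The promoters of genes with a 5′ member held fewer CpG dinucleotides than those at shared peaks. CpG islands are the usual form of promoters active in many tissues. A member stood at the 5′ end of 166 genes, while promoters of only 146 genes were read. The RefSeq promoter table gave 156 promoters of these 146 genes, each 300 bases, 250 before the start and 50 after it. Their median GC content was 58.0% and their median CpG count 15, against 62.0% and 23 at 8738 promoters of shared peaks and 60.7% and 19 at 805 of narrow shared peaks. At 31 of the 156 (19.9%, interval 13.9 to 27%) there were 5 CpG or fewer, against 4.44% for shared, 6.21% for narrow shared (interval 4.64 to 8.11%) and 19.9% for mirrored peaks. Over all 21263 promoters of the table the share was 32.3%. The members thus had the same share as the mirrored peaks and lay between shared peaks and all promoters.

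Motifs were searched as exact letters on both strands of these 300-base windows. AGATAA was found in 11.5% of the member promoters (interval 6.98 to 17.6%), 5.68% of shared, 7.70% of narrow shared and 7.95% of mirrored ones, and in 9.65% of all promoters. TGATAA was found in 10.9% (interval 6.48 to 16.9%), 3.59%, 3.48% and 5.68%, and in 7.60% of all. For both GATA forms the share over all promoters lay inside the interval of the members. For TGATAA the shares of shared, narrow shared and mirrored promoters lay below that interval, though the mirrored interval (3.5 to 8.64%) overlapped it. For AGATAA only the share of shared promoters lay below the interval of the members. GAGGAAG was found in 11.5% (interval 6.98 to 17.6%) of member, 12.6% of shared, 12.9% of narrow shared, 19.3% of mirrored and 13.6% of all promoters. CACCC, the core of the site bound by Kruppel-like factors, was found in 62.8% of member, 62.4% of shared, 66.1% of narrow shared, 69.3% of mirrored and 59.5% of all promoters. CCAAT was found in 35.9% of member promoters (interval 28.4 to 44.0%), 38.9% of shared, 46.5% of narrow shared, 46.3% of mirrored and 38.2% of all promoters. TATAAA was found in 8.33% of member, 6.05% of shared, 7.70% of narrow shared, 9.09% of mirrored and 12.6% of all promoters. GGGCGG, the site of Sp factors, was found in 58.3% of member (interval 50.2 to 66.2%), 68.8% of shared, 70.3% of narrow shared, 61.6% of mirrored and 46.2% of all promoters. TGAGTCA, the site of AP-1, was found in 5.13% of member, 2.78% of shared, 2.86% of narrow shared, 3.69% of mirrored and 4.66% of all promoters. The windows hold only the 5′ end of each gene and not the peak itself.

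The rule drew its lines as follows. Just inside 1 kb from a gene end were Tex15 at 996 bp and Kif16b at 990 bp, and just outside were Gpbp1l1 at 1001 bp and AA986860 at 1007 bp. The smallest gap between a member and an untreated peak was 48 bp and was shared by 9 members, those at Kif27, Bnip3 and Gata1 among them. Just outside were Fbxo48 and Atp1b2, each with 3 bp of overlap. The smallest overlap with H3K4me1 was 3 bp, at 4 members in the treated list, all of them H3K27ac peaks that are themselves 3 bp wide. In the untreated list it was 3 bp at the same 4, at Ctsz, Samd4b, Smim18 and Gata1, and at a wider member at Fam222a. Outside, the peaks at H4c18 and H2ac24 and at Nr2f1 had none in the treated list, and those at Smim6 and at H4c18 and H2ac24 none in the untreated list.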

How the data were processed

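The report uses 4 deposited peak lists of a series of 24 samples, grouped by sample titles. Other assays of the series were not analysed here. Per the submitters' processing notes, bcl2fastq 2.17.1.14 and BWA were used, with build mm10. How peaks were called, at what threshold, and how the H3K27ac replicates were joined is not given in the sources used here. In the deposited H3K27ac files there are positions, a width and a column that is 2 throughout, which was not used. The deposited H3K4me1 lists give a score by the authors, of unstated scale, used only to pick the better-scored peaks in alternatives, and a further column that was not used. No list gives reads, so depth is unknown and covered length is not signal height. More reads can give more or wider peaks. Starts lay on a grid of 50 bp and coordinates were taken to be 1-based and inclusive.

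Gene ends came from a RefSeq table on GRCm38.p6 (21887 protein-coding genes, without strand or exons). Strand came from the RefSeq promoter table for 17492 of them. Overlap needed 1 bp. Shares carry exact Clopper-Pearson 95% intervals. Lengths are bp covered by peaks, and scaled lengths multiply treated H3K4me1 by 0.941, the ratio of the list totals. Calculations used scipy 1.17.1, pandas 2.3.3 and numpy 2.4.6 in Python 3.11.15, with figures by matplotlib 3.10.9. They were tested on simulated data, and bedtools 2.31.1 gave the same 325 members. Named genes are the 10 widest members, all members of the erythroid membrane, globin and haem list, the first 2 by width of each of the other lists, the 5 largest H3K4me1 differences in each direction, up to 5 genes with several members by summed width, the 5 members farthest from untreated peaks, and those nearest each threshold, where ties are counted and the tied members named were chosen after their values were seen. Apol genes, the Hba-x and Hbq1a values, the runs of members and Lrrc39, which ties in width with Fam13b, were added after values were seen. The members and the 15 gene lists were chosen with earlier results of these data known and are no independent evidence. The table has no entry for the list symbols Ahsp, Mx1 and Mx2.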

Additional observations from a re-analysis of the deposited data

How the results depend on the processing

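Of 237 values recomputed under alternatives, 169 moved by less than the counting interval or 1.5 times, 68 moved by more and 0 turned direction. Most of these values are counts or shares, which cannot change sign, and comparisons between sets were not among them. Members and mirrored peaks numbered 325 and 712 in the main setting, and this order turned to 523 and 384 with equal peak numbers. Every other setting kept the order of the main one. The order of members and shared peaks by longer H3K4me1 within 1 kb turned with scaling. With no untreated peak within 500 bp, median width was 678 bp, the median H3K4me1 difference 300 bp and the share with an untreated peak within 5 kb 34.7%. With 2 kb to a gene end there were 530 members, 64.2% with longer H3K4me1 and 57.5% near an untreated peak. With the wider 50% of each H3K27ac list, all (100%) overlapped both H3K4me1 lists, width was 1803 bp, 82.0% had longer H3K4me1 by 400 bp in the median, 79.5% were at a 5′ end and 21.3% near an untreated peak. With the better-scored 50% of H3K4me1, 88.0% overlapped both lists. Equal peak numbers gave 523 members, 69.2% at a 5′ end and 42.8% near an untreated peak. Merging peaks within 1 kb gave 200 members of 753 bp, 27% near an untreated peak and 4 erythroid genes. Scaled H3K4me1 lengths gave 62.2% longer and a median difference of 88.5 bp. With no flank these were 17.8% and 0.0 bp, and with 5 kb 80.9% and 894 bp. On the gene strand alone, shares were 3.85% for AGATAA and for TGATAA, 6.41% for GAGGAAG, 31.4% for CACCC, 23.7% for CCAAT, 43.6% for GGGCGG and 1.92% for TGAGTCA, since fewer bases were searched. The cause of the other moves was not tested. No paired analysis was possible because each condition has 1 list per mark, and no replicate could be left out. The alternative that keeps 5′ ends alone was not run, as it fixes that share by construction.

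Peak calls limit these results: a member is a site without a call in the untreated list, not a site shown to lack acetylation there, and 24 members are under 200 bp wide. Widths and numbers depend on the depth and on how the H3K27ac replicates were combined, neither of which is known here.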
